A study of Rattus norvegicus with 4 samples.

Results

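The regions described here are the CD44 ChIP-seq peaks that start on rat chromosome 20 after base 1000000 and up to base 6000000 (Rnor_6.0), the stretch that holds the rat major histocompatibility complex, RT1, and that is called the MHC stretch below. They were chosen by position alone and number 282 of the 289279 peaks from cells kept in serum and 805 of the 409937 peaks from serum-starved cells. The peaks that start after base 6000000 and up to base 12000000 on the same chromosome served as the flank, with 297 serum and 810 starved peaks. The cells were rat nucleus pulposus cells, from the soft centre of the intervertebral disc, grown in DMEM-F12 with 10% fetal bovine serum or starved in 0.1% serum. Each condition had 1 library precipitated with an antibody against CD44 and 1 input library without antibody, and the 2 deposited peak lists were used here. How long the cells were starved, and whether they came from 1 animal or several, is not given in the labels. A peak list holds no expression values, so the cell type was not checked against markers.

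CD44 is a cell-surface receptor for hyaluronan, and its intracellular part can be cut off and has been described in the nucleus. ChIP-seq recovers the DNA that lies close to an antibody's target after precipitation, and a peak is a place where more fragments were recovered than in the local background. The MHC encodes the class I and class II proteins that show peptides to T cells, and between them a class III block with cytokine and complement genes. Its class I genes have been copied many times, so that near-identical sequences lie close together, to which short reads are hard to assign. Whether such copies bear on the values below was not tested. RefSeq names 67 RT1 genes on rat assembly GRCr8, all on chromosome 20, of which 44 are protein-coding and 19 are pseudogenes. The RT1-M class I family has 19 members and the RT1-CE class I family 17. Of the genes named here, RT1-M2 comes first in the order of that assembly, then Gabbr1 and Mog. RT1-M1-1-ps and RT1-T24-1 are next, and then RT1-CE16 and RT1-CE1. The cytokine gene Tnf, the heat shock gene Hspa1b and the complement gene C4b follow. After them come the class II genes from RT1-Da on, with the peptide transporter Tap2 and the proteasome gene Psmb9, then the classical class I genes RT1-A3 to RT1-A1 and the peptide-loading gene Tapbp. The peaks are on Rnor_6.0 and positions were not carried between assemblies. No peak is therefore assigned to a gene, and no sequence under a peak is printed.

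The serum library gave the denser signal. Its peaks had a lowest local background of 1.502 fragments, computed from fold enrichment and pileup, while for starved peaks this floor was 0.0996. In the MHC stretch the median pileup, the number of fragments stacked at a peak's highest point, was 7 in serum peaks (quartiles 6 and 10) and 2 in starved peaks (quartiles 1 and 3). A pileup of 1 fragment made 331 of the 805 starved peaks (41.1%), against 40.9% in the whole starved list. Serum peaks were 272 to 3183 bp long with a median of 359 bp, and starved peaks 217 to 2407 bp with a median of 231 bp. With 1 precipitated library per condition no difference between conditions has a replicate behind it, and no p-value is given. The exact 95% intervals below (Poisson for densities, binomial for shares and density ratios) take in nothing beyond counting error, and peaks that lie side by side share their surroundings.

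Serum peaks were sparse in the MHC stretch and starved peaks were not. The serum list had 56.4 peaks per Mb there (interval 50.01 to 63.4), against 114 on the rest of chromosome 20, flank included, and 98.7 on chromosomes 1 to 19. The density was 0.497 times that of the rest of chromosome 20 (interval 0.439 to 0.560). The flank was also sparse, with 49.5 serum peaks per Mb, and the ratio of the MHC stretch to the flank was 1.14 (interval 0.965 to 1.35), so over all peaks no difference from the flank was detectable. Among peaks with a q-value (described below) of at most 0.05 the ratio was 1.89 (60 against 38 peaks, interval 1.24 to 2.92), which lies above 1. A raised background (also described below) held for 27 of those 60 peaks and for 0 of the 38. The ratio at this q was not computed without them. The starved list had 161 peaks per Mb in the MHC stretch (interval 150 to 173), 135 in the flank and 145 on chromosomes 1 to 19. The starved ratio to the flank was 1.19 (interval 1.08 to 1.32). It reversed to 0.871 (interval 0.776 to 0.977) when peaks with a raised background, described below, were left out, and the serum ratio then was 0.856 (interval 0.712 to 1.03). The MHC stretch thus held 2.85 starved peaks for each serum peak and the flank 2.73, against 1.20 on the rest of chromosome 20 and 1.42 in the whole lists.

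Within the MHC stretch the serum peaks were unevenly spread, with more at its outer end than in most of its other windows. Windows are named by their limits in Mb, so that 1.0 to 1.5 Mb takes in the peaks that start after base 1000000 and up to base 1500000. Just before the stretch, 2 windows of 500 kb held 58 and 65 serum peaks, so its outer end was not dense beside its surroundings. The first 3 windows of the stretch, from 1.0 to 2.5 Mb, held 55, 44 and 42 serum peaks. The next 4 windows, to 4.5 Mb, held 13, 22, 15 and 15. The window from 4.5 to 5.0 Mb held 46, and the last 2 windows of the stretch held 15 each. Low counts continued into the flank, with 14, 10, 8, 14 and 23 peaks in the windows up to 8.5 Mb. From 2.5 to 8.5 Mb the serum list had 35.0 peaks per Mb and the starved list 150.5, or 4.30 starved peaks for each serum peak. Starved counts in the 10 windows of the MHC stretch ran from 59 to 109 with a median of 70.5, and in the 12 windows of the flank from 56 to 78 with a median of 68.5. The highest starved count, 109, lay from 3.0 to 3.5 Mb, where the serum list had 22 peaks. Each of the 22 windows held more starved than serum peaks. On the scale of 100 kb, 5 of 50 windows of the MHC stretch had more serum than starved peaks. One of them, from 1.1 to 1.2 Mb, held 26 serum peaks, the most of any 100 kb window, and 21 starved peaks.

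**Figure D1:**
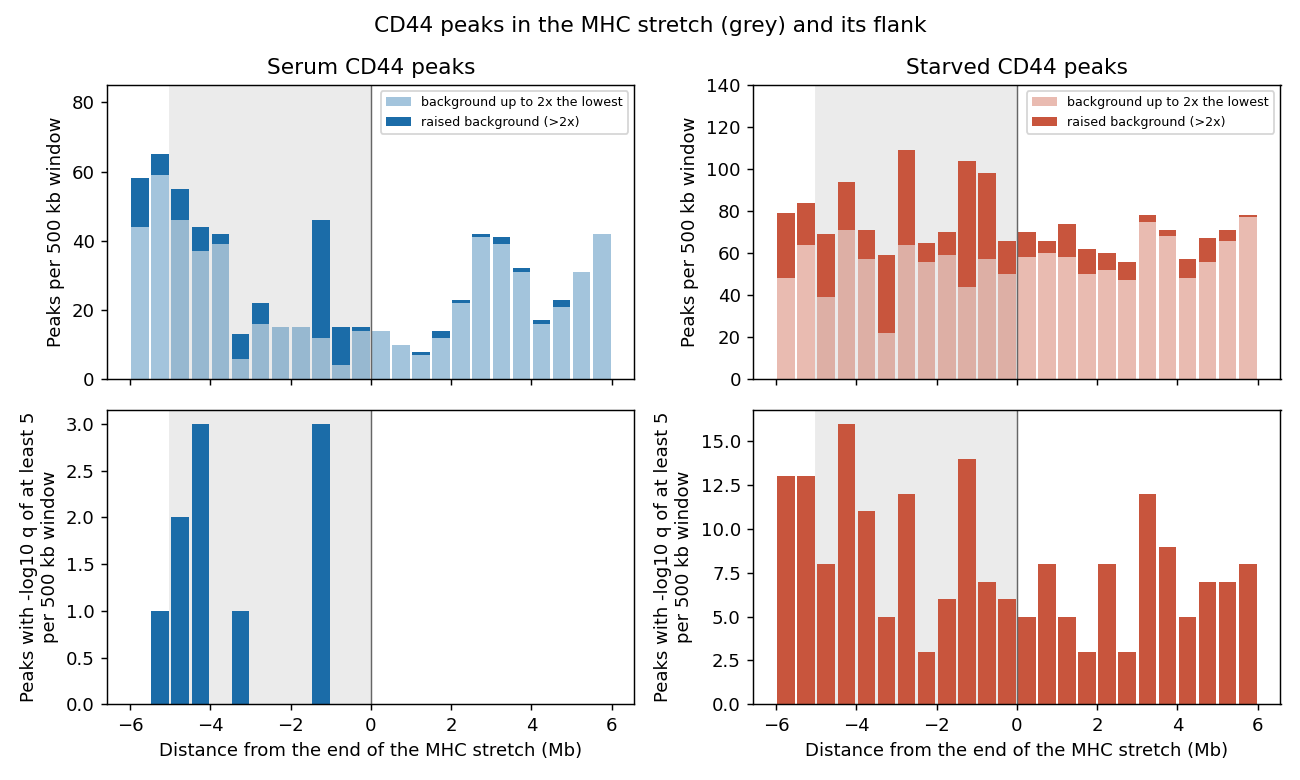
Peaks per 500 kb window in the serum list (left) and the starved list (right), against the distance in Mb from the end of the MHC stretch, which is shaded grey. The flank lies right of the grey area, and the windows left of it are the first 1 Mb of the chromosome. The upper panels count all peaks, with those of raised background in the darker shade, and the lower panels the strong peaks (−log10 q 5 or more), of which the serum list had 9 in the MHC stretch and 0 in the flank.

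Strong serum peaks were found in the MHC stretch and not in the flank, while strong starved peaks were found in both. The q-value is the authors' p-value after correction over their peak calling. A q of at most 0.05 held for 60 of the 282 serum peaks (21.3%, against 19.9% in the whole list) and for 389 of the 805 starved peaks (48.3%, against 52.0%). Peaks with a −log10 q of 5 or more are called strong here. Strong were 9 serum peaks (3.19%, interval 1.47 to 5.97, against 1.22% in the whole list). The flank had 0 of 297, which allows a share of up to 1.01% by a limit of 3 peaks, and up to 1.23% by the exact interval. With 3 peaks set for the flank, the density of strong serum peaks was 3.60 times as high in the MHC stretch. The exact interval of the ratio, which takes in the counting error of the 9 peaks too, begins at 2.37. That limit treats the peaks as independent and comes from 1 library, so it does not set a minimum for the difference. Against chromosomes 1 to 19 the ratio was 1.55, with an interval of 0.707 to 2.94 that includes 1. In the starved list 88 peaks were as strong (10.9%, against 13.0% in the whole list), or 17.6 per Mb. The flank had 13.3 per Mb and the rest of chromosome 20 had 17.4, and both ratios had intervals that include 1 (1.32, interval 0.964 to 1.81, and 1.01, interval 0.804 to 1.26). A −log10 q of 20 or more was reached by 0 of the 282 serum peaks, which allows a share of up to 1.06% by the same limit and 1.30% by the exact interval (whole list 0.109%), and by 6 of the 805 starved peaks (0.745%, whole list 0.727%).

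The MHC stretch stood apart from the flank by its local background in both lists. Backgrounds above 2 times the lowest of their list are called raised. In the serum list it was raised for 78 of 282 peaks (27.7%, interval 22.5 to 33.3), against 11 of 297 in the flank (3.70%, interval 1.86 to 6.53) and 9.15% in the whole list. In the starved list 286 of 805 peaks had a raised background (35.5%, interval 32.2 to 38.9), against 95 of 810 in the flank (11.7%, interval 9.59 to 14.1) and 25.0% in the whole list. Backgrounds above 5 times the lowest occurred at 29 serum peaks of the MHC stretch (10.3%, whole list 1.58%). In the starved list there were 42 (5.22%, whole list 2.14%), and the flank had 0 in either list. The first 1 Mb of the chromosome had 7 among its 123 serum peaks and 8 among its 163 starved peaks. Such backgrounds were thus not confined to the MHC stretch. At the other end, 40 serum peaks of the MHC stretch (14.2%, whole list 31.7%) and 83 starved peaks (10.3%, whole list 17.1%) were at the lowest background, within 1.01 times of it.

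Raised backgrounds were unevenly spread, and some of the places were the same for serum and starved peaks. From 4.5 to 5.0 Mb the background was raised for 34 of 46 serum peaks (73.9%) and 60 of 104 starved peaks (57.7%). From 5.0 to 5.5 Mb the shares were 73.3% of 15 serum and 41.8% of 98 starved peaks. From 2.5 to 3.0 Mb they were 53.8% of 13 serum and 62.7% of 59 starved peaks. At other places the starved share stood above the serum share, as it did in the whole lists (25.0% against 9.15%). From 1.0 to 1.5 Mb the starved share was 43.5% of 69 peaks, against 16.4% of 55 serum peaks. From 3.0 to 3.5 Mb it was 41.3% of 109, against 27.3% of only 22 serum peaks. Further on, from 3.5 to 4.5 Mb, 0 of 30 serum peaks had a raised background, and the starved shares were 13.8% and 15.7%. The most marked 100 kb window was that from 4.6 to 4.7 Mb, with 18 of 19 serum and 13 of 16 starved peaks of raised background. Over the 10 windows of 500 kb, the raised shares of the lists had a Spearman rho of 0.900, and over 46 windows of 100 kb with peaks in both lists 0.753. These windows share their genome sequence and the same pair of libraries, so the values describe these lists. Leaving out the 2 windows with most such peaks lowered the raised share to 14.9% for serum peaks (without 4.5 to 5.5 Mb). For starved peaks it was then 30.6% (without 4.5 to 5.0 Mb and 3.0 to 3.5 Mb).

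**Figure D2:**
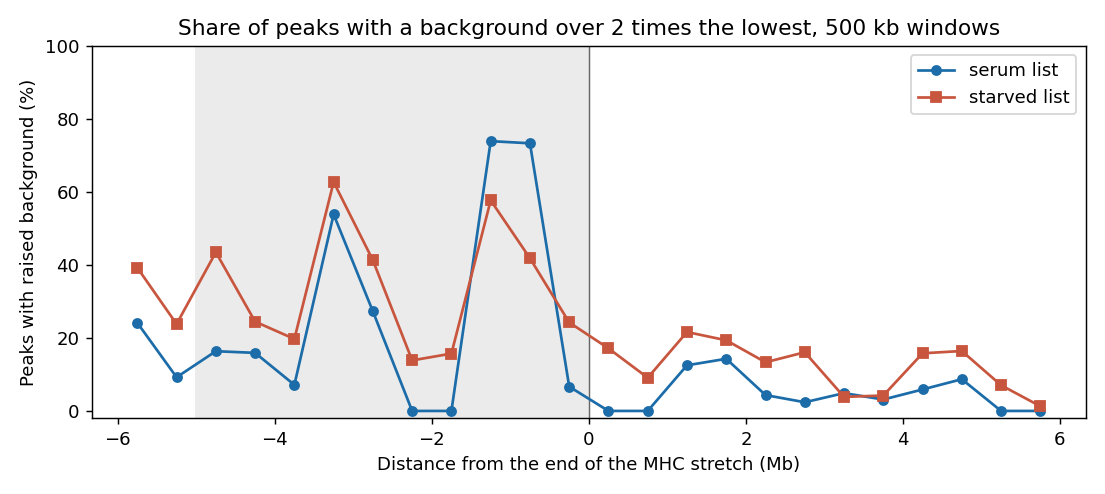
Share of peaks with a background of more than 2 times the lowest of the list, in percent, for each 500 kb window against the distance in Mb from the end of the MHC stretch (grey), with circles for the serum and squares for the starved list. In both lists the highest shares lie within the MHC stretch, up to 73.9% for serum and 62.7% for starved peaks. No window of the flank, right of the grey area, exceeds 14.3% and 21.6%. The windows left of the grey area are the first 1 Mb of the chromosome and not flank, with up to 24.1% for serum and 39.2% for starved peaks.

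The highest serum backgrounds lay close together. Peaks from 4795176 to 4795696 (pileup 45) and from 4796577 to 4797498 (pileup 49) both stood on 13.4 times the lowest background, with fold enrichments of 2.18 and 2.37. The fold enrichment, a ratio set by the authors' peak caller, divides pileup plus 1 by background plus 1. A starved peak from 4796653 to 4797208 overlapped the second of them, with a pileup of 3 on 9.58 times the lowest background of its list. The highest starved background, 13.1 times the lowest, was at a peak from 1234237 to 1235248 (pileup 13), which no serum peak overlapped. For scale, the 10 serum peaks picked for the largest fold enrichment reached 4.55 to 5.40, and the tall serum peaks named here were not among them.

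**Figure D3:**
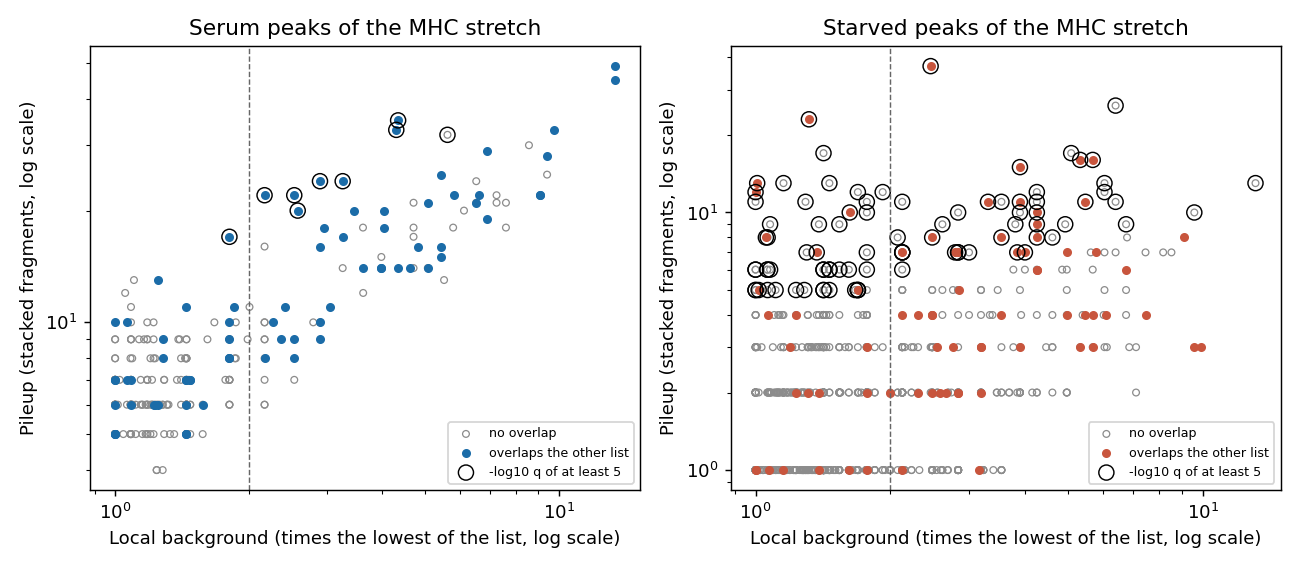
Pileup (stacked fragments) against local background (times the lowest of the list), both on log scales, for the 282 serum peaks (left) and the 805 starved peaks (right) of the MHC stretch. Filled points overlap a peak of the other list, circled points are strong (−log10 q 5 or more), and the dashed line is at 2 times the lowest background, right of which 8 of the 9 strong serum peaks lie.

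Serum peaks of the MHC stretch overlapped starved peaks more often than those of the flank did. By at least 1 bp, 76 of 282 serum peaks overlapped a starved peak (27.0%, interval 21.9 to 32.5), against 26 of 297 in the flank (8.75%, interval 5.80 to 12.6) and 15.7% in the whole list. In the first 1 Mb of the chromosome, 26 of 123 serum peaks overlapped a starved peak (21.1%, interval 14.3 to 29.4). The starved peaks covered 4.94% of the MHC stretch and 3.47% of the flank. Of the starved peaks 76 of 805 overlapped a serum peak (9.44%, interval 7.51 to 11.7), against 3.21% in the flank (interval 2.11 to 4.67) and 11.0% in the whole list. Among peaks with a q of at most 0.05, 27 of 60 serum peaks (45.0%, whole list 28.1%) and 54 of 389 starved peaks (13.9%, whole list 14.1%) did so. Among strong peaks the numbers were 8 of 9 serum peaks (88.9%, whole list 90.3%) and 25 of 88 starved peaks (28.4%, interval 19.3 to 39.0, whole list 21.6%).

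The overlap went along with the background. Of the 78 serum peaks with a raised background 44 overlapped a starved peak (56.4%, interval 44.7 to 67.6), and of the 204 others 32 did (15.7%, interval 11.0 to 21.4). The whole serum list had 58.9% and 11.4% in these classes. Weighting those 2 shares by the mix of backgrounds in the MHC stretch gave 24.5%, which lies inside the interval of the observed 27.0%. In the starved list 18.5% of the 286 peaks with a raised background and 4.43% of the 519 others overlapped a serum peak. The whole starved list had 17.5% and 8.83%, which gave 11.9% for the mix of the MHC stretch, just above the interval of the observed 9.44%. In the flank the same calculation gave 13.1% for serum and 9.85% for starved peaks, both above the intervals of the observed shares. Without raised backgrounds in either list, 11.3% of serum and 4.24% of starved peaks of the MHC stretch were shared.

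**Figure D4:**
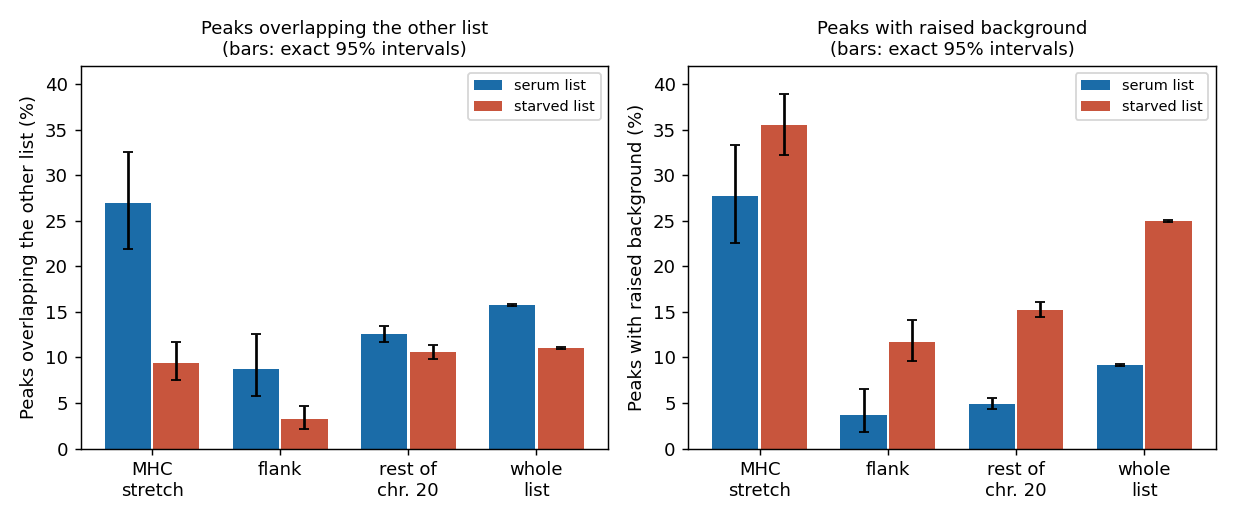
Share of peaks that overlap a peak of the other list by at least 1 bp (left) and share of peaks with a raised background (right), in percent, for the MHC stretch, the flank, the rest of chromosome 20 and the whole list. Bars are the serum and the starved list, and whiskers are exact 95% binomial intervals. In the MHC stretch 27.0% of serum peaks overlap a starved peak, against 8.75% in the flank.

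The 76 overlapping serum peaks were paired with the starved peak that shared most bases, which involved 72 starved peaks. Both members of a pair had a raised background in 43 pairs and neither had one in 23. It was raised in the starved list alone for 9 pairs and in the serum list alone for 1. Over the 76 pairs the 2 backgrounds had a Spearman rho of 0.793 and the −log10 q values one of 0.315, as a description of pairs from the same libraries. The median shared length was 254.5 bp, with median peak lengths of 388.5 bp on the serum side and 348.5 bp on the starved side.

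Both peaks were strong in 8 pairs, which are the places of the MHC stretch where both precipitations were strong. In chromosomal order, the first serum peak ran from 1049182 to 1050114 with a pileup of 22, and its starved partner from 1048743 to 1049621 with a pileup of 10. The second serum peak, 1203747 to 1204103 (pileup 20), lay inside the longest starved peak of the stretch, 1203035 to 1205441 (2407 bp, pileup 7). The next 3 pairs lay within 100 kb of each other.

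In this group, the serum peak from 1711886 to 1712247 (pileup 22) met a starved peak from 1711918 to 1712363 (pileup 11). Next, the serum peak from 1729333 to 1729985 (pileup 24) and the starved peak from 1729314 to 1729980 (pileup 10) had nearly the same ends. The serum peak with the highest −log10 q of the MHC stretch, 10.8, ran from 1800163 to 1800645 (pileup 35) inside a starved peak from 1799684 to 1801511 (pileup 15). The 100 kb from 1.7 to 1.8 Mb held 10 strong starved peaks, the most of any 100 kb window, and 2 strong serum peaks. The sixth pair was a serum peak from 2592623 to 2592974 (pileup 33) and a starved peak from 2592685 to 2593039 (pileup 16). In each of these 6 pairs the serum pileup was above the starved one.

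The last pairs were of another kind, since more fragments were stacked in the starved list although its lowest background was far lower. The serum peak from 4823044 to 4823352 had a pileup of 17 and a −log10 q of 5.38. The starved peak there, from 4822724 to 4823466, had a pileup of 23 and a −log10 q of 40.0. The other serum peak, from 4878453 to 4879148, had a pileup of 24 and a −log10 q of 7.14. The starved peak around it, from 4877730 to 4879601, was the strongest of the MHC stretch in either list, with a pileup of 37, a −log10 q of 62.4 and a fold enrichment of 30.5. It also took in a second, weaker serum peak from 4877812 to 4878129 (pileup 22). In the whole lists, 63 of 2563 pairs of this strength (2.46%) had the higher pileup in the starved list, against these 2 of 8. Pileups are given as deposited, after any scaling by the authors.

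**Figure D5:**
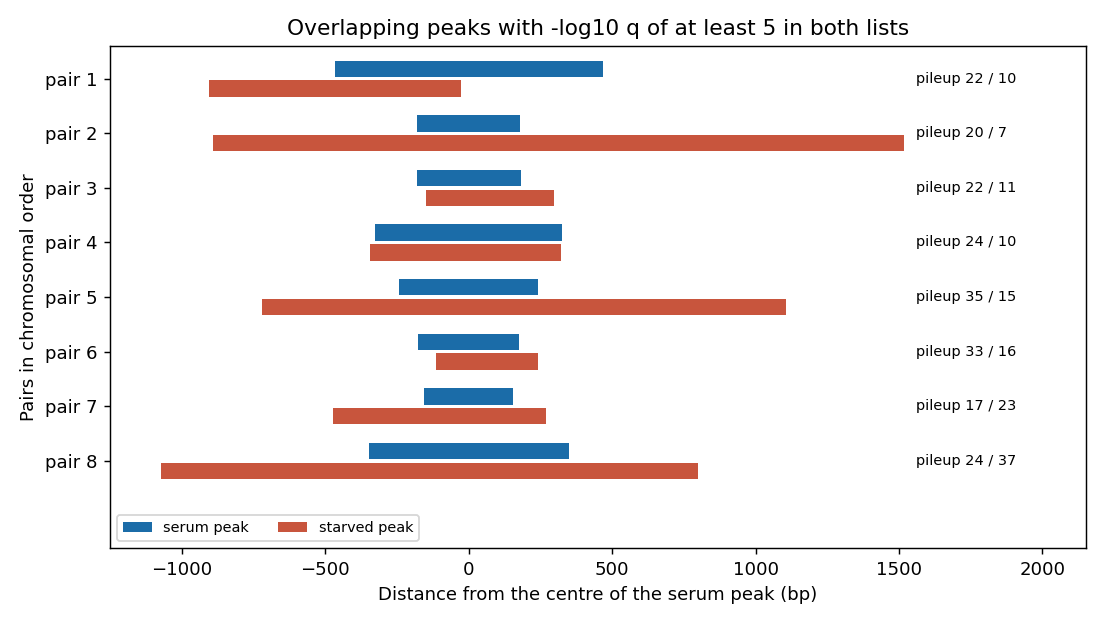
Extent of the 8 overlapping pairs in which both peaks are strong (−log10 q 5 or more), in chromosomal order, as the distance in bp from the centre of the serum peak. Upper bars are serum peaks and lower bars starved peaks, and the numbers give the pileup in the serum and then the starved list. The starved pileup is the higher one in the last 2 pairs only, 23 against 17 and 37 against 24.

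Among all 76 pairs the starved pileup was the higher one in 7, against 5.36% of the pairs of the whole lists. Of the other 5 pairs, 3 stood at a background near the lowest in both lists. The serum peak from 1576648 to 1577219 had a pileup of 7, and the starved peak from 1576695 to 1577137 had 12. At 3621997 to 3622292 the serum pileup was 10, and the starved peak from 3621930 to 3622325 had 13. At 1930419 to 1930769 the serum pileup was 7, against 8 in the starved peak from 1930144 to 1930484. The starved backgrounds at these 3 places were 1.00, 1.01 and 1.05 times the lowest. The remaining 2 pairs were at raised backgrounds. One was the weaker serum peak at 4877812 described above, and the other lay from 5342877 to 5343661 in the serum list (pileup 14) and from 5342932 to 5343242 in the starved list (pileup 16).

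Several of the strongest starved peaks had no serum peak on them. Of the 10 starved peaks with the largest fold enrichment, 11.5 to 30.5, 5 overlapped a serum peak and 5 did not. That pick has no matching share over all peaks. Of the 6 with a −log10 q of 20 or more, 3 overlapped a serum peak (50%, interval 11.8 to 88.2) and 3 did not. In the whole starved list 1072 of 2980 such peaks (35.97%) overlapped one, which lies inside that interval. Peaks of this strength without a serum peak were thus not particular to the MHC stretch. One of the 3 without a serum peak ran from 4775492 to 4775819 (pileup 26), on 6.39 times the lowest background. The nearest serum peak was 6488 bp away. The others without, from 4028822 to 4029110 (pileup 13) and from 4033527 to 4034135 (pileup 17), stood on 1.15 and 1.42 times the lowest background. They lay in the longest gap between serum peaks of the MHC stretch, 273 kb from 3805512 to 4078731, in which the starved list had 41 peaks. Over the 63 strong starved peaks without a serum peak the nearest serum peak was 0.067 to 63.6 kb away, with a median of 5.58 kb, and for 14 of them it was within 1 kb. A raised background held for 38.1% of these 63 and for 68.0% of the 25 strong starved peaks that were shared. Over all 88 it held for 41 (46.6%, whole list 26.6%), and over the 9 strong serum peaks for 8 (88.9%, whole list 74.7%).

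Of the 10 serum peaks with the largest fold enrichment, 4.55 to 5.40, 7 overlapped a starved peak. This pick, too, has no matching share over all peaks. The 3 without a starved peak had a −log10 q of 4.89, 3.36 and 4.27. Of the 7 with one, 6 were strong and the other had 4.30. The longest serum peak, 3183 bp from 1167758 to 1170940, had a pileup of 13 and a −log10 q of 4.89, and the nearest starved peak was 337 bp away. The other 2 lay from 1277157 to 1277588 (pileup 11) and from 2090114 to 2090901 (pileup 12), with starved peaks 517 and 3811 bp away. The 1 strong serum peak that no starved peak overlapped ran from 4676385 to 4676775. Its pileup of 32 stood on 5.61 times the lowest background, and a starved peak lay 815 bp away.

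Long peaks were found in the MHC stretch and were missing from the flank. A length of 1 kb or more was reached by 5 serum peaks (1.77%, whole list 1.10%) and 16 starved peaks (1.99%, whole list 1.83%), and by 0 peaks of the flank in either list. The shares of the MHC stretch were thus near those of the whole lists. The first 1 Mb of the chromosome had 1 such peak among 123 serum peaks and 5 among 163 starved peaks. Of the 16 starved ones, 10 started from 1.0 to 2.0 Mb, and 10 overlapped a serum peak. The 5 longest starved peaks all overlapped a serum peak. The share of overlap among all long starved peaks of the whole list was not computed, so these counts cannot be called particular to the stretch. Of the 5 longest serum peaks, 3 lay in the 100 kb window with the most raised backgrounds: 4629667 to 4631023, 4646836 to 4647887 and 4648242 to 4649855. They had pileups of 18, 21 and 17. The third of these overlapped a starved peak with a pileup of 2, and the first 2 overlapped none.

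The longest piece of the MHC stretch without a peak in either list ran over 159 kb, from 1346254 to 1505281. It was the longest gap between starved peaks. The next starved gaps were 49.2 kb (from 2733877) and 48.1 kb (from 5267893), also with 0 serum peaks inside, and the median gap was 3.13 kb in the starved and 6.68 kb in the serum list. The longest serum gaps held starved peaks, 41 in the first, 22 in the second (229 kb from 2648234) and 16 in the third (171 kb from 5172022).

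Among 541 windows of 5 Mb laid in the same way over chromosomes 1 to 20 and X, the MHC stretch was at the high end for raised backgrounds and overlap of serum peaks and at the low end for their number. Its 282 serum peaks compare with a median of 526, and 78 windows had fewer. Its 805 starved peaks compare with a median of 717, and 483 windows had fewer. The raised share of serum peaks was lower in 517 windows (median 7.39%), and that of starved peaks in 475 (median 21.5%). The shared part of serum peaks was lower in 519 windows (median 14.8%), but that of starved peaks in 215 (median 10.5%). The 9 strong serum peaks compare with a median of 5 and the 88 strong starved peaks with a median of 94. These ranks describe 1 library per condition.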

How the data were processed

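ChIP-seq with an antibody against CD44 was done in 1 library per condition, each with 1 input. The authors deposited 1 peak list per condition. FastQC, STAR 2.5.3a, MACS2 2.1.1 and the genome build Rnor_6.0 are listed per the submitters' processing notes, without the options used. The deposited values are a fold enrichment (a ratio per peak), a p-value, a q-value named FDR per the file headers, and a pileup signal. Read totals were not used here.

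Peaks were selected by start position. Dividing (pileup + 1) by the fold enrichment and subtracting 1 gave each peak's local background. A Poisson tail from it came within 0.05 log10 units of the deposited p-value for 100% of peaks. Overlaps were of at least 1 bp. Intervals were exact at 95%. Pileups are as deposited, after any scaling by the authors, and fold enrichments of the 2 lists rest on different backgrounds. Named were, in each list, the 10 peaks with the largest fold enrichment, the 5 longest, those with a −log10 q of at least 20, all pairs with at least 5 in both lists, and the windows with most strong peaks. Other single peaks, pairs and gaps were named after their values were seen. The stretch and the lists were chosen with earlier results of these data known. The planned gene lists were not matched to peaks, since the gene table used is on another assembly, GRCr8. The overlap, background and interval calculations were tested on simulated data. The versions scipy 1.17.1, pandas 2.3.3, numpy 2.4.6 and matplotlib 3.10.9 under Python 3.11.15 were used.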

Additional observations from a re-analysis of the deposited data

Results flagged for a closer look

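Peak density in the MHC stretch was set against the rest of chromosome 20 and against chromosomes 1 to 19. The ratios lay on opposite sides of 1 for serum and starved peaks in 5 of these 6 comparisons. This contrast has no replicate behind it and was not tested. It did not hold against the flank, where serum and starved ratios were 1.14 and 1.19 over all peaks, and 1.89 and 1.15 at a q of at most 0.05. Against the rest of chromosome 20 the log2 ratio was −1.01 for serum and 0.24 for starved peaks over all peaks, and −0.76 and 0.062 at a q of at most 0.05. Against chromosomes 1 to 19 it was −0.81 and 0.15 over all peaks, and −0.69 and 0.051 at a q of at most 0.05. Both starved ratios at that q have intervals that include 1. Among strong peaks (−log10 q 5 or more) the order turned, with 0.63 for serum and −0.091 for starved peaks against chromosomes 1 to 19, and both intervals include a ratio of 1. Against the rest of chromosome 20 the ratios of strong peaks lay on the same side, 2.14 for serum and 1.01 for starved peaks, and their intervals also include 1.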

How the results depend on the processing

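No paired analysis was possible because serum and starvation were each measured in a single precipitated library, and leaving out replicates was likewise not possible. Of 45 alternatives, 19 stayed within the interval of the reported value. The setting without the 2 windows richest in raised backgrounds was chosen after seeing the data. The MHC to flank ratio of serum density, 1.14 in the report, was 1.89 at a q of at most 0.05, 0.856 without raised backgrounds, 0.497 against all of chromosome 20 beyond base 6000000 and 0.571 against chromosomes 1 to 19. For strong peaks (−log10 q 5 or more) it has no value, since the flank held 0. The starved ratio, 1.19, was 1.32 for strong peaks, 1.04 with peaks merged over gaps of up to 1 kb, and reversed to 0.871 without raised backgrounds. The share of serum peaks that overlapped a starved peak, 27.0%, was 38.3% at a q of at most 0.05 and 88.9% for strong peaks on both sides, 11.3% without raised backgrounds, 10.3% at an overlap of 50% and 40.8% with a gap of 500 bp. The starved share, 9.44%, was 5.91% at a q of at most 0.05, 4.24% without raised backgrounds, 3.60% at an overlap of 50%, 15.4% with a gap of 500 bp and 12.9% with lists of equal length. The raised share, 27.7% in serum, was 45.0% at a q of at most 0.05, 88.9% for strong peaks, 10.3% above 5 times and 37.6% above 1.5 times the lowest background, and 14.9% without the 2 windows. In starved peaks, 35.5% became 46.6% for strong peaks, 5.22% above 5 times, 54.3% above 1.5 times, and 30.6% without the 2 windows. Apart from settings that redefine the measure, the cause of these shifts was not tested.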
